A study of Homo sapiens with 33 samples.

Results

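The effect of FOXL2 induction at the end of gonadal differentiation was measured by comparing the induced (IND) and non-induced (CTRL) cells of day 14 across all genes. The members were chosen by the day and condition in the sample labels, which gave 3 IND and 3 CTRL samples, 6 of the 33 samples of the series. All of them came from clone 24 of H9-DDdCas9VP192-FOXL2, a line made from H9 human embryonic stem cells, which carries an inducible Cas9 activator without cutting activity and guide RNAs directed at the FOXL2 promoter. Both groups went through the same 14-day differentiation towards gonadal-like cells. IND cells received doxycycline (DOX), which switches on the activator, and trimethoprim (TMP), which stabilises it, from day 4, and CTRL cells received neither, so that 10 days of induction separated the groups. No group received DOX and TMP without FOXL2 activation, and so the effects of FOXL2 and of the 2 agents cannot be told apart. The 3 samples of a group are technical replicates of 1 differentiation of 1 clone, and the p-values therefore measure the spread between replicate wells only.

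FOXL2 is a forkhead transcription factor. It marks the supporting cells of the developing ovary, which become granulosa cells, and opposes the testis programme there. Gonadal somatic cells arise from the coelomic epithelium, where GATA4, WT1 and LHX9 act in the bipotential gonad before the ovarian or the testicular pathway is entered. RSPO1 and WNT4 act on the ovarian side, and SOX9, FGF9 and DHH on the testicular side.

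FOXL2 lies on chromosome 3 (GRCh38, bases 138944224 to 138947140, minus strand). FOXL2NB starts close to it on the opposite strand (bases 138947234 to 138953451). The long non-coding RNA gene LINC01391 is on the minus strand too (bases 138935189 to 138944020). In the direction of transcription it lies downstream of FOXL2. In RefSeq the starts of FOXL2 and FOXL2NB are at bases 138947137 and 138947217, and the 79 bases between them (GRCh38.p14, chr3:138947138-138947216, plus strand) are shown because the activator was directed to the FOXL2 promoter, and FOXL2 and FOXL2NB, which start on either side of them, were both read in IND.
FOXL2 to FOXL2NB: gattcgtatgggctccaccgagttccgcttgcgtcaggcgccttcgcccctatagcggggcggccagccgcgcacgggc

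FOXL2 was 0.0272, 0.142 and 0.207 CPM in CTRL and 189.6, 183 and 150.1 CPM in IND, where CPM is the count per 1000000 counts of the TMM-scaled library size. These CTRL values stand for 1, 4 and 5 counts, so that FOXL2 was at the edge of detection without induction and was abundant in every IND library (log2 fold change 10.55, SE 0.24, adjusted p = 2.12e-10, edgeR quasi-likelihood test with Benjamini-Hochberg adjustment over all genes tested). Where a call was lost or gained with 1 library left out, the adjusted p without that library is given at the end of the paragraph. FOXL2NB was 0, 0.0355 and 0 CPM in CTRL and 42.5, 40.5 and 36.3 CPM in IND, with 1 count in all 3 CTRL libraries together. The ratio of the summed FOXL2NB counts, scaled by library size, was 3500.0 with an exact 95% counting interval of 627 to 138000, which covers counting error only. LINC01391 was at 0 counts in each CTRL library and at 22.3, 20.6 and 20.9 CPM in IND, at least 204-fold higher when each CTRL library is set to a floor of 3 counts. The induction label was therefore borne out in each of the 6 libraries. Guide target positions within the locus were not analysed here.

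The 6 libraries held 24291092 to 51900017 counts, with 2 of the 3 IND libraries deeper than every CTRL library. In a principal component analysis of log2 CPM over the 19055 genes tested, the first component held 47.5% of the variance and separated IND from CTRL, and the second (18.2%) spread the CTRL libraries, from -34.3 in CTRL replicate 2 to 39.5 in CTRL replicate 3. Pearson correlations between libraries, computed across genes, were 0.981 to 0.987 within CTRL, 0.986 to 0.988 within IND and 0.969 to 0.977 between the groups. No library was a repeat of another, since the counts of every pair within a group differed by 10.0 to 34.3 times the variance that counting alone gives. Mitochondrially encoded genes took 1.99% to 3.47% of the counts in CTRL and 2.73% to 3.11% in IND.

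Of the 19055 genes tested, 1606 differed between IND and CTRL at an adjusted p under 0.05, which is 8.43% of them, 612 being upregulated (3.21%) and 994 downregulated (5.22%). The median log2 fold change was 0.81 over the upregulated and -0.92 over the downregulated genes, against 0.0039 over all genes tested. A log2 fold change of 1 or more in size was reached by 697 of them, 234 up and 463 down. The 3 IND and 3 CTRL values did not overlap for 5104 genes, 26.8% of those tested, and for 1605 of the 1606 genes called. Protein-coding genes made up 1504 of the calls. In RNA from whole wells, fewer cells of a type and less RNA per cell cannot be told apart. The number of calls ranged from 905 to 1987 when 1 library was left out, and the lowest, reached without IND replicate 3, was over 1.5 times below 1606. It held 339 upregulated and 566 downregulated genes, and without CTRL replicate 1 the downregulated genes numbered 662.

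**Figure D1:**
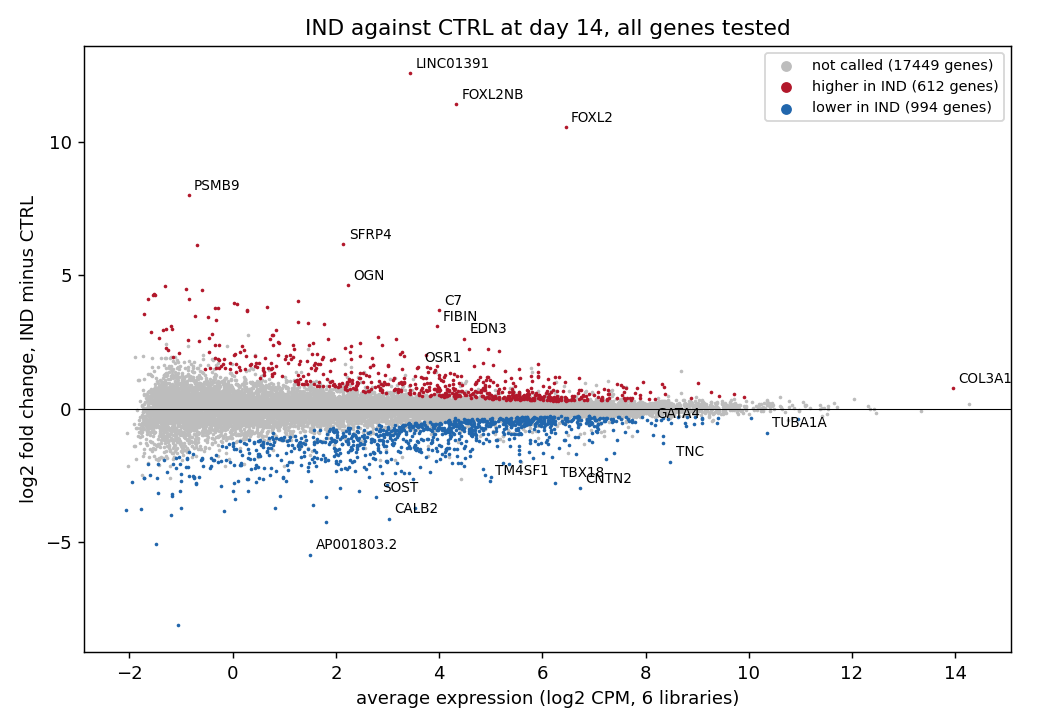
Each point is 1 of the 19055 genes tested, with average expression in log2 CPM over the 6 day 14 libraries on the x axis and the log2 fold change of IND against CTRL on the y axis, coloured where the adjusted p is under 0.05. The 3 genes of the FOXL2 locus lie above all other upregulated genes, with FOXL2 at 10.55.

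After the FOXL2 locus, the largest increases among genes at an average of at least 1 log2 CPM included several genes of secreted proteins. SFRP4, a secreted WNT antagonist, was 0.109, 0.106 and 0.124 CPM in CTRL and 7.1, 7.87 and 9.76 CPM in IND (log2 fold change 6.15, SE 0.31, adjusted p = 1.32e-07). OGN, a small leucine-rich proteoglycan also known as osteoglycin, was 0.381, 0.248 and 0.415 CPM in CTRL and 9.93, 5.27 and 10.6 CPM in IND (log2 fold change 4.62, SE 0.35, adjusted p = 6.72e-06). Both genes were close to the detection limit in CTRL and were read in every IND library, with OGN lowest in IND replicate 2. C7, a late complement component, was 2.7, 2.73 and 1.24 CPM in CTRL and 26.2, 39.8 and 21.2 CPM in IND (log2 fold change 3.68, SE 0.35, adjusted p = 0.000809). MFAP5, a protein of elastic microfibrils, was 0.599, 0.568 and 0.788 CPM in CTRL and 6.23, 3.68 and 7.53 CPM in IND (log2 fold change 3.17, SE 0.32, adjusted p = 4.42e-05). FIBIN, which encodes a secreted homolog of fin bud initiation factor, was 2.81, 2.73 and 4.27 CPM in CTRL and 24.1, 27.6 and 30.6 CPM in IND (log2 fold change 3.08, SE 0.18, adjusted p = 1.03e-06). EDN3, the ligand endothelin 3, was 8.09, 5.29 and 5.22 CPM in CTRL and 40.8, 39 and 35.3 CPM in IND (log2 fold change 2.61, SE 0.16, adjusted p = 2.21e-06).

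The other genes of this rank were RARRES3, a retinoid-responsive phospholipase (log2 fold change 4.05, SE 0.40, adjusted p = 4.34e-05), GPAT3, an enzyme of triglyceride synthesis (3.25, SE 0.29, adjusted p = 1.47e-05), TLR3, the endosomal sensor of double-stranded RNA (3.22, SE 0.43, adjusted p = 0.000729), SH3GL2, an endophilin (2.67, SE 0.23, adjusted p = 1.28e-05), SPTSSB, a subunit of serine palmitoyltransferase (2.59, SE 0.21, adjusted p = 7.6e-06), and HOPX, a homeodomain-only protein (2.59, SE 0.30, adjusted p = 0.000123). In each of these 6 genes all IND libraries exceeded all CTRL libraries. TLR3, for example, was 0.218, 0.39 and 0.954 CPM in CTRL and 4.14, 3.73 and 5.97 CPM in IND.

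The largest decreases at the same average level were those of the long non-coding RNA gene AP001803.2 and of BOLA2B, which are described last. CALB2, which encodes calretinin, a calcium-binding protein of mesothelium and of neurons, was 16.3, 10.9 and 19.9 CPM in CTRL and 0.654, 1.09 and 0.907 CPM in IND (log2 fold change -4.13, SE 0.26, adjusted p = 2.63e-06). TBX18, a T-box factor of the coelomic epithelium and urogenital mesenchyme, was 136, 94 and 167 CPM in CTRL and 16.6, 20.4 and 20.7 CPM in IND (log2 fold change -2.78, SE 0.22, adjusted p = 0.000429). CNTN2, an axonal adhesion protein, was 225, 223 and 117 CPM in CTRL and 27, 19.8 and 24.8 CPM in IND (log2 fold change -2.98, SE 0.30, adjusted p = 0.00277). CTRL replicate 3 was the lowest CTRL library for CNTN2 and the highest for TBX18 and CALB2, and no CTRL value of the 3 genes reached into the IND range. HMX1, a homeobox gene of sensory and sympathetic neurons, was 19.9, 31.4 and 13.5 CPM in CTRL and 2.71, 0.969 and 1.32 CPM in IND (log2 fold change -3.73, SE 0.48, adjusted p = 0.00617). SOST, the WNT inhibitor sclerostin, was 8.74, 12.1 and 17.6 CPM in CTRL and 1.71, 0.696 and 1.42 CPM in IND (log2 fold change -3.33, SE 0.35, adjusted p = 0.000449). TM4SF1, a tetraspanin-like membrane protein, was 59.3, 40.8 and 65.8 CPM in CTRL and 7.23, 7.4 and 10.6 CPM in IND (log2 fold change -2.71, SE 0.22, adjusted p = 0.000173).

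PLN, the muscle calcium pump inhibitor phospholamban, fell, with a log2 fold change of -3.09 (SE 0.47, adjusted p = 0.00678), and so did KLHL40, a stabiliser of muscle thin filaments, with -2.99 (SE 0.45, adjusted p = 0.00413), and SLC17A6, a vesicular glutamate transporter, with -2.72 (SE 0.33, adjusted p = 0.000219). PTPRQ, a receptor phosphatase, was at -3.62 (SE 0.36, adjusted p = 6.08e-05), SUCNR1, the succinate receptor, at -3.32 (SE 0.40, adjusted p = 0.0005), the protease KLK5 at -2.86 (SE 0.30, adjusted p = 0.000242) and the potassium channel KCNH6 at -2.73 (SE 0.33, adjusted p = 0.000189). The long non-coding RNA gene AP001803.2 was 6.51, 4.51 and 6.14 CPM in CTRL and 0, 0 and 0.315 CPM in IND (log2 fold change -5.48, SE 0.77, adjusted p = 0.00522), so that only IND replicate 3 held reads of it. BOLA2B was 8.14, 10.8 and 1.33 CPM in CTRL and 0.374, 0.124 and 0.532 CPM in IND (log2 fold change -4.26, SE 0.92, adjusted p = 0.0482), and it has a near-identical copy on chromosome 16 with which reads can be shared, which makes its value uncertain. BOLA2B was at adjusted p = 0.0684 to 0.166 without CTRL replicate 1 or 2 or IND replicate 1, 2 or 3.

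**Figure D2:**
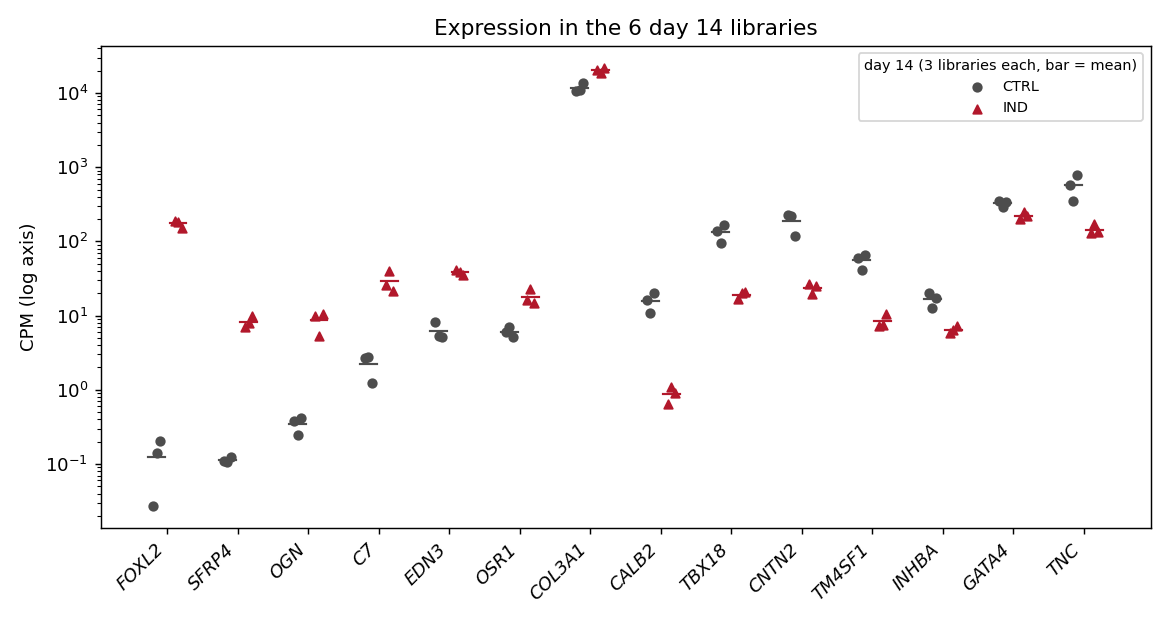
CPM on a log axis in each of the 6 day 14 libraries for 14 named genes, with circles for CTRL, triangles for IND and a bar at the mean of 3 libraries. The IND values lie above all CTRL values for the 7 genes on the left and below them for the 7 on the right. The largest log2 fold change shown is that of FOXL2 at 10.55. The decreases run from -0.55 in GATA4 to -4.13 in CALB2.

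In CPM the largest gain was that of COL3A1, the chain of type III collagen, which was 10790.3, 10832 and 13759 CPM in CTRL and 20186, 18405 and 21815 CPM in IND (log2 fold change 0.77, SE 0.13, adjusted p = 0.00245). The desmosomal genes DSG2 (317, 305 and 424 CPM in CTRL and 648, 649 and 760.1 CPM in IND, log2 fold change 0.98, SE 0.13, adjusted p = 0.000498) and DSP (log2 fold change 0.60, SE 0.11, adjusted p = 0.00447) rose as well. TXNIP, a thioredoxin-interacting arrestin, was 654, 690.3 and 698 CPM in CTRL and 967, 971 and 1049 CPM in IND (log2 fold change 0.55, SE 0.09, adjusted p = 0.00166), and APLP2, a relative of the amyloid precursor protein, changed by 0.41 (SE 0.10, adjusted p = 0.0193). Among the downregulated genes, large losses in CPM were those of TUBA1A, an alpha tubulin of neurons (1659.9, 1986 and 1468 CPM in CTRL and 983, 871 and 881 CPM in IND, log2 fold change -0.90, SE 0.12, adjusted p = 0.000328), and of TNC, the matrix glycoprotein tenascin C, which was 578, 349 and 787 CPM in CTRL and 128, 171 and 133 CPM in IND (log2 fold change -1.99, SE 0.32, adjusted p = 0.0166). GPC3, a heparan sulphate proteoglycan, changed by -0.40 (SE 0.10, adjusted p = 0.024), the integrin subunit ITGA3 by -1.29 (SE 0.25, adjusted p = 0.0273) and MYH9, non-muscle myosin, by -0.55 (SE 0.12, adjusted p = 0.00882). APLP2 was at adjusted p = 0.0681 to 0.114 without CTRL replicate 1 or IND replicate 1 or 3. TNC was at adjusted p = 0.0589 without IND replicate 1. GPC3 was at adjusted p = 0.0738 to 0.159 without CTRL replicate 1 or IND replicate 1 or 3. ITGA3 was at adjusted p = 0.0748 to 0.0914 without IND replicate 1 or 2. MYH9 was at adjusted p = 0.0698 without IND replicate 3.

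GATA4, WT1 and LHX9, which mark the gonadal progenitors that the protocol aims at, were read in every library of both groups and were lower in IND. Of 21 tested transcription factors of this list, 6 were downregulated and 1 upregulated, 28.6% and 4.76% against 5.22% and 3.21% of all genes, with a median log2 fold change of -0.05. GATA4 was 353, 295 and 335 CPM in CTRL and 199, 250.5 and 220.0 CPM in IND (log2 fold change -0.55, SE 0.10, adjusted p = 0.00399), a decrease with no overlap between the groups. WT1, named here after its values were seen, was 144, 119 and 177 CPM in CTRL and 98.3, 91.4 and 107 CPM in IND (log2 fold change -0.57, SE 0.13, adjusted p = 0.0219). LHX9 was 9.94, 5.71 and 6.3 CPM in CTRL and 1.46, 2.81 and 3.35 CPM in IND (log2 fold change -1.51, SE 0.31, adjusted p = 0.011) and GATA2 was 13.2, 10.7 and 13 CPM in CTRL and 4.8, 6.06 and 4.12 CPM in IND (log2 fold change -1.30, SE 0.18, adjusted p = 0.000502). LHX1 was at a log2 fold change of -0.74 (SE 0.21, adjusted p = 0.0427). In this list, the upregulated members numbered 0 when CTRL replicate 2 or IND replicate 2 or 3 was omitted. WT1 was at adjusted p = 0.063 to 0.0854 without CTRL replicate 1 or IND replicate 1, 2 or 3. LHX1 was at adjusted p = 0.0901 to 0.133 without CTRL replicate 1 or 2 or IND replicate 1, 2 or 3.

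Of 22 coelomic epithelium and mesothelium markers tested, 4 were downregulated and 0 upregulated (18.2% and 0% against 5.22% and 3.21% of all genes, median -0.33). Besides CALB2 these were the keratins KRT18 (-0.55, SE 0.12, adjusted p = 0.0149) and KRT19 (-0.55, SE 0.14, adjusted p = 0.0359) and ALDH1A2, a retinaldehyde dehydrogenase (-0.37, SE 0.10, adjusted p = 0.0351). UPK3B, a mesothelial uroplakin, was 51.4, 36.7 and 69.5 CPM in CTRL and 39.6, 32.8 and 55.9 CPM in IND and the groups overlapped (adjusted p = 0.647). KRT8, the partner of KRT18, was 1771, 1697 and 2506 CPM in CTRL and 1383, 1546 and 1510.0 CPM in IND and did not pass the test (adjusted p = 0.0857), whereas DESeq2 called it (adjusted p = 0.0194). The summed level of the list was 5829.6, 5357 and 8045 CPM in the CTRL libraries and 5184, 5639 and 5867 CPM in the IND libraries, with CTRL replicate 3 above all others. In the mesothelial list, the upregulated members numbered 2 when CTRL replicate 3 was omitted and the downregulated members 2 when IND replicate 1, 2 or 3 was omitted. KRT18 was at adjusted p = 0.0732 to 0.0767 without IND replicate 1 or 3. KRT19 was at adjusted p = 0.103 to 0.122 without IND replicate 1, 2 or 3. ALDH1A2 was at adjusted p = 0.0552 to 0.164 without CTRL replicate 1 or 2 or IND replicate 2 or 3. KRT8 was at adjusted p = 0.0367 without CTRL replicate 2.

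Early supporting gonadal cells are the common precursors of granulosa and Sertoli cells. Of 10 markers tested, 3 were upregulated and 0 downregulated (30% and 0% against 3.21% and 5.22% of all genes, median 0.45). OSR1, a zinc finger factor of intermediate mesoderm, was 6.07, 6.99 and 5.1 CPM in CTRL and 16, 22.7 and 14.9 CPM in IND (log2 fold change 1.56, SE 0.19, adjusted p = 0.000184), and SPRR2F, a small proline-rich protein, was 23, 20.5 and 17.9 CPM in CTRL and 46.5, 38.7 and 43.9 CPM in IND (log2 fold change 1.07, SE 0.12, adjusted p = 8.25e-05). KITLG, the ligand of the germ cell receptor KIT, changed by 0.64 (SE 0.15, adjusted p = 0.0247). The other markers of this stage that the study followed did not pass the test. LGR5, the receptor of R-spondins, was 4.6, 2.59 and 2.03 CPM in CTRL and 1.68, 2.31 and 1.62 CPM in IND (log2 fold change -0.73, adjusted p = 0.194), and TAC1, a tachykinin, was 0.409, 0.355 and 0.456 CPM in CTRL and 0.716, 0.869 and 0.512 CPM in IND (log2 fold change 0.77, adjusted p = 0.335). Neither difference exceeded the replicate spread by the test. TSPAN8, a tetraspanin, was below the expression filter, with 0, 1 and 0 counts in CTRL and 3, 4 and 10 in IND, and was not tested. The ratio of its summed counts, scaled by library size, was 12.3 with a counting interval of 1.93 to 514. KITLG was at adjusted p = 0.0689 to 0.0775 without CTRL replicate 1 or 2 or IND replicate 2.

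Granulosa lineage genes were called for 3 increases and 1 decrease among 19 tested (15.8% and 5.26% against 3.21% and 5.22% of all genes, median 0.13), KITLG being 1 of the increases. FSHR, the follicle-stimulating hormone receptor, was 0.218, 0.213 and 0.829 CPM in CTRL and 1.87, 2.38 and 3.73 CPM in IND (log2 fold change 2.74, SE 0.49, adjusted p = 0.00466), a rise from near the detection limit to a low level. FOXP1 changed by 0.42 (SE 0.10, adjusted p = 0.0141). INHBA, the activin beta A subunit, was 19.96, 12.6 and 17.2 CPM in CTRL and 5.89, 6.41 and 7.19 CPM in IND (log2 fold change -1.35, SE 0.18, adjusted p = 0.000328). FST, the activin-binding protein follistatin, was 37.3, 29.5 and 47.8 CPM in CTRL and 49.1, 49.7 and 62.7 CPM in IND and the groups did not overlap, but the test was not passed (log2 fold change 0.50, adjusted p = 0.13). RSPO1 was 32, 36.1 and 35.9 CPM in CTRL and 32.2, 40.5 and 41.1 CPM in IND (adjusted p = 0.552) and WNT4 was 9.34, 17.1 and 8.38 CPM in CTRL and 8.25, 5.99 and 5.07 CPM in IND (log2 fold change -0.86, adjusted p = 0.118). DESeq2 called both FST (adjusted p = 0.0252) and WNT4 (adjusted p = 0.012). In the granulosa list, the upregulated members numbered 5 when CTRL replicate 3 was omitted and the downregulated members 2 when CTRL replicate 3 was omitted. FOXP1 was at adjusted p = 0.0626 to 0.0681 without IND replicate 1 or 3. FST was at adjusted p = 0.00257 without CTRL replicate 3. WNT4 was at adjusted p = 0.0349 without CTRL replicate 3.

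Among 16 testis pathway genes tested, 2 were upregulated and 3 downregulated (12.5% and 18.8% against 3.21% and 5.22% of all genes, median -0.20). FGF9, a testis-promoting growth factor, rose (0.65, SE 0.15, adjusted p = 0.0124), and so did GLI1, the target of Hedgehog signalling (0.76, SE 0.19, adjusted p = 0.0293). The retinoic acid-degrading enzyme CYP26B1 (-0.70, SE 0.15, adjusted p = 0.0086), the neuregulin receptor ERBB4 (-0.83, SE 0.20, adjusted p = 0.0316) and GADD45G (-0.52, SE 0.12, adjusted p = 0.0129) fell. SOX9 was 22.9, 22.4 and 11.6 CPM in CTRL and 13, 11.3 and 10.01 CPM in IND (log2 fold change -0.74, adjusted p = 0.108) and NR0B1 was 1.72, 3.05 and 1.95 CPM in CTRL and 2.21, 1.49 and 1.38 CPM in IND (adjusted p = 0.5), neither past the threshold. DESeq2 called SOX9 at an adjusted p of 0.00945, and without CTRL replicate 3, whose value lay within the IND range, its log2 fold change was -0.99. In the testis list, the upregulated members numbered 0 when IND replicate 1 was omitted and 1 when CTRL replicate 1 or 2 or IND replicate 2 or 3 was omitted and the downregulated members 1 when IND replicate 1 or 2 was omitted and 6 when CTRL replicate 3 was omitted. DHH held 3, 13 and 7 counts in CTRL and 0, 6 and 4 in IND and was not tested. FGF9 was at adjusted p = 0.0545 to 0.0595 without CTRL replicate 1 or IND replicate 1 or 3. GLI1 was at adjusted p = 0.0832 to 0.105 without CTRL replicate 2 or IND replicate 1 or 2. CYP26B1 was at adjusted p = 0.0537 without IND replicate 3. ERBB4 was at adjusted p = 0.0571 to 0.101 without CTRL replicate 2 or IND replicate 1 or 2. GADD45G was at adjusted p = 0.0588 to 0.0593 without IND replicate 1 or 2. SOX9 was at adjusted p = 0.000135 without CTRL replicate 3.

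No steroid hormone synthesis gene passed the test among 13 tested (median -0.07). Over all genes 8.43% were called in either direction, and with 13 genes 0 calls cannot be told apart from that share. STAR, which brings cholesterol into mitochondria, was 5.17, 7.1 and 4.64 CPM in CTRL and 5.14, 4.84 and 5.05 CPM in IND (adjusted p = 0.687). Aromatase, CYP19A1, held 7, 4 and 12 counts in CTRL and 6, 4 and 7 in IND, and CYP17A1 held 0, 0 and 1 in CTRL and 10, 0 and 0 in IND, with all of its IND counts in IND replicate 1, so that a difference in either was not detectable at this depth. Of 23 cholesterol synthesis genes, 4 were downregulated and 0 upregulated (17.4% and 0% against 5.22% and 3.21% of all genes, median -0.26). Among the downregulated were MVD (-0.53, SE 0.08, adjusted p = 0.00115), LSS (-0.37, SE 0.08, adjusted p = 0.00863) and HMGCS1 (-0.48, SE 0.10, adjusted p = 0.00947). HMGCS1 was at adjusted p = 0.0515 to 0.063 without CTRL replicate 1 or IND replicate 2 or 3.

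**Figure D3:**
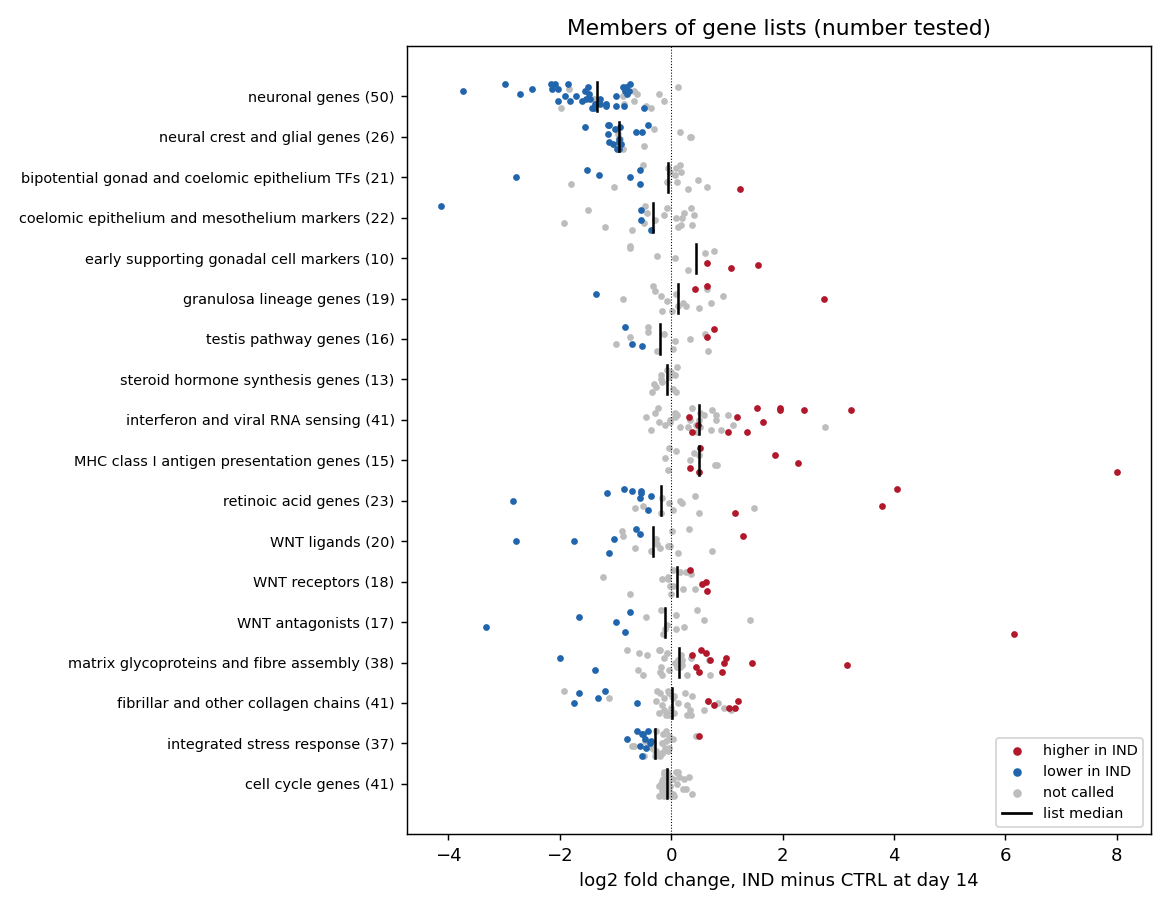
Log2 fold change of IND against CTRL at day 14 (x axis) for each tested member of 18 gene lists (rows, number tested in brackets), red for upregulated, blue for downregulated, grey for not called, with a black bar at the list median. The neuronal row has 36 of 50 members in blue and none in red, and the cell cycle row has no coloured member among 41.

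The neuronal genes were the most downregulated list by count among the lists examined. Of 50 tested, 36 were downregulated and 0 upregulated, 72% against the 5.22% of all genes, with a median log2 fold change of -1.33. Their summed level was 2878, 3145 and 2109.5 CPM in CTRL and 1291, 1175 and 1245 CPM in IND, and CTRL replicate 3, the lowest of its group, was still above every IND library. ISL2 (-2.71, SE 0.41, adjusted p = 0.001) and POU4F1 (-2.50, SE 0.41, adjusted p = 0.0188), homeobox factors of sensory and motor neurons, and DPYSL3, an axon growth protein and the member with the highest CPM, which was 403, 356 and 381 CPM in CTRL and 171, 217 and 183 CPM in IND (log2 fold change -0.999, SE 0.10, adjusted p = 5.28e-05), were among them. With 1 library left out, 28 to 42 members were downregulated, and in limma on log2(FPKM + 1) and log2(FPKM + 0.1) 12 and 19 were, where FPKM is the deposited value per gene length and library size. POU4F1 was at adjusted p = 0.0611 to 0.0648 without CTRL replicate 2 or IND replicate 1.

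Neural crest and glial genes were lower in IND too, and 16 of 26 tested were downregulated and 0 upregulated (61.5% and 0% against 5.22% and 3.21% of all genes, median -0.93). S100B, a glial calcium-binding protein, was 6.67, 8.87 and 6.1 CPM in CTRL and 2.74, 1.89 and 2.76 CPM in IND (log2 fold change -1.55, SE 0.23, adjusted p = 0.000792). PAX3 (-1.14, SE 0.17, adjusted p = 0.00279) and FABP7 (-1.13, SE 0.15, adjusted p = 0.000314), genes of neural crest and glial precursors, fell too. The summed level of the list was 1456, 1859 and 1267 CPM in CTRL and 934, 862 and 925 CPM in IND. In the neural crest list, the upregulated members numbered 1 when CTRL replicate 1, 2 or 3 was omitted, and limma on log2(FPKM + 1) and log2(FPKM + 0.1) called 3 and 5 decreases. CTRL replicate 2 was the highest library in the neuronal and in the neural crest list, and the part of these cells in the other results was not tested.

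Axon guidance genes were called in both directions, 4 up and 8 down of 46 (8.7% and 17.4% against 3.21% and 5.22% of all genes, median -0.03). The semaphorin receptors PLXNA2, which was 256, 214 and 247 CPM in CTRL and 388, 446 and 423 CPM in IND (log2 fold change 0.81, SE 0.10, adjusted p = 0.000156), and NRP2 (0.52, SE 0.09, adjusted p = 0.00299) rose, and NTNG1 (-2.18, SE 0.24, adjusted p = 8.35e-05) and the ephrin receptor EPHA5 (-1.97, SE 0.26, adjusted p = 0.000351) fell. In the guidance list, the upregulated members numbered 2 when CTRL replicate 2 or IND replicate 3 was omitted and 7 when CTRL replicate 3 was omitted and the downregulated members 4 when IND replicate 1 was omitted and 5 when CTRL replicate 1 or IND replicate 3 was omitted. Of 40 channel genes, 11 were downregulated and 4 upregulated (27.5% and 10% against 5.22% and 3.21% of all genes, median -0.34). HCN4, the pacemaker channel, was 69.1, 45.7 and 83.7 CPM in CTRL and 13, 16.9 and 16.6 CPM in IND (log2 fold change -2.09, SE 0.23, adjusted p = 0.00162), and the potassium channel KCNQ3 changed by -2.15 (SE 0.43, adjusted p = 0.00637). Among the channels, the upregulated members numbered 0 when IND replicate 2 was omitted, 1 when CTRL replicate 1 was omitted and 2 when IND replicate 1 or 3 was omitted and the downregulated members 6 when CTRL replicate 1 was omitted.

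Genes of the extracellular matrix were called in both directions. Matrix glycoproteins and genes of fibre assembly had 11 members up and 2 down of 38 tested (28.9% and 5.26% against 3.21% and 5.22% of all genes, median 0.14). With MFAP5 these included SPON2 (1.45, SE 0.14, adjusted p = 2.68e-05), EFEMP1 (0.99, SE 0.13, adjusted p = 0.000335) and FBLN5 (0.95, SE 0.17, adjusted p = 0.00521), the last of them an organiser of elastic fibres. TNC and SPARCL1 (-1.37, SE 0.16, adjusted p = 0.000136) were the downregulated members, and the downregulated members numbered 1 when IND replicate 1 was omitted and 4 when CTRL replicate 2 was omitted. Of the 11 upregulated members, 4 were called in 1 fit over all libraries and 1 and 6 in limma on log2(FPKM + 1) and log2(FPKM + 0.1). Collagen chains were called for 5 increases and 5 decreases of 41 (12.2% and 12.2% against 3.21% and 5.22% of all genes, median 0.01). COL14A1, a chain that binds fibril surfaces, was 53.3, 47.5 and 36.3 CPM in CTRL and 92.2, 129 and 94.5 CPM in IND (log2 fold change 1.201, SE 0.17, adjusted p = 0.00364), and COL12A1 rose by 1.14 (SE 0.19, adjusted p = 0.00281). COL16A1 was 104, 75.5 and 116 CPM in CTRL and 31.1, 29 and 33.2 CPM in IND (log2 fold change -1.66, SE 0.14, adjusted p = 8.25e-05), and COL11A2 (-1.31, SE 0.11, adjusted p = 1.07e-05) and COL22A1 (-1.18, SE 0.10, adjusted p = 1.28e-05) fell. Among the collagen chains, the upregulated members numbered 3 when CTRL replicate 1 was omitted and 10 when CTRL replicate 3 was omitted. The summed level of the collagen list was 26815, 26482 and 33626 CPM in CTRL and 37942, 35726 and 39887 CPM in IND, without overlap, and COL3A1 made up most of the difference.

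Small leucine-rich proteoglycans bind collagen fibrils, and 3 of 12 were upregulated and 1 downregulated (25% and 8.33% against 3.21% and 5.22% of all genes, median 0.22). PRELP was 16.2, 12.9 and 11.2 CPM in CTRL and 39.9, 46.9 and 44.8 CPM in IND (log2 fold change 1.70, SE 0.13, adjusted p = 7.92e-06) and ASPN, which lies on chromosome 9 near OGN and on the same strand, changed by 1.91 (SE 0.49, adjusted p = 0.0328). BGN, biglycan, was 126, 105 and 105 CPM in CTRL and 71.5, 76.7 and 64.2 CPM in IND (log2 fold change -0.66, SE 0.10, adjusted p = 0.000909). DCN, decorin, was 466, 462 and 772 CPM in CTRL and 584, 548 and 861 CPM in IND and its groups overlapped (adjusted p = 0.7). The matrix proteases and inhibitors had 5 members up and 6 down of 32 (15.6% and 18.8% against 3.21% and 5.22% of all genes, median -0.07). ADAMTS5 was 18.4, 13.8 and 15.9 CPM in CTRL and 42.6, 52.5 and 52.6 CPM in IND (log2 fold change 1.61, SE 0.13, adjusted p = 7.6e-06). ADAMTS16 (1.18, SE 0.15, adjusted p = 0.000217) and ADAMTS1 (0.79, SE 0.09, adjusted p = 8.25e-05) rose, and ADAMTS19 fell (-0.64, SE 0.11, adjusted p = 0.00221). In the protease and inhibitor list, the downregulated members numbered 2 when CTRL replicate 1 or IND replicate 3 was omitted and 3 when IND replicate 2 was omitted. ASPN was at adjusted p = 0.0505 to 0.165 without CTRL replicate 1, 2 or 3 or IND replicate 1 or 3.

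Junction and adhesion genes had 8 members up and 5 down of 54 tested (14.8% and 9.26% against 3.21% and 5.22% of all genes, median 0.09). Besides DSG2 and DSP, the protocadherin PCDH18 was 197, 148 and 152 CPM in CTRL and 291, 359 and 341 CPM in IND (log2 fold change 0.996, SE 0.12, adjusted p = 0.000303), and the cadherin CDH6 was 77.2, 76.9 and 70.9 CPM in CTRL and 31.6, 33.9 and 35.1 CPM in IND (log2 fold change -1.16, SE 0.09, adjusted p = 5.76e-06). In the junction list, the upregulated members numbered 3 when IND replicate 3 was omitted, 4 when IND replicate 2 was omitted and 13 when CTRL replicate 3 was omitted and the downregulated members 2 when IND replicate 1 or 3 was omitted and 3 when CTRL replicate 1 was omitted.

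WNT signalling genes were sorted by role. Of 20 ligands and R-spondins tested, 6 were downregulated and 1 upregulated (30% and 5% against 5.22% and 3.21% of all genes, median -0.32). The R-spondin RSPO2, which strengthens WNT signals, was 9.61, 12 and 11.9 CPM in CTRL and 25.8, 24 and 32.4 CPM in IND (log2 fold change 1.30, SE 0.14, adjusted p = 9.79e-05). WNT1 was 30.4, 27.8 and 27.9 CPM in CTRL and 16.1, 15 and 11.3 CPM in IND (log2 fold change -1.03, SE 0.14, adjusted p = 0.000378), and WNT16 fell (-2.78, SE 0.51, adjusted p = 0.00401). WNT6 was 0.245, 0.426 and 0.415 CPM in CTRL and 0.0623, 0.373 and 0.414 CPM in IND (adjusted p = 0.849). Among 18 receptors, 4 were upregulated and 0 downregulated (22.2% and 0% against 3.21% and 5.22% of all genes, median 0.10). The upregulated receptors included the Frizzled receptors FZD7 (0.62, SE 0.09, adjusted p = 0.000636) and FZD8 (0.65, SE 0.11, adjusted p = 0.0031) and the R-spondin receptor LGR4 (0.55, SE 0.10, adjusted p = 0.00281). Among the ligands, the upregulated members numbered 2 when CTRL replicate 2 was omitted and the downregulated members 3 when IND replicate 3 was omitted. Among the receptors, the downregulated members numbered 1 when CTRL replicate 3 or IND replicate 2 was omitted.

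Antagonists of WNT went in opposite directions, with SFRP4 up and 5 of 17 down (5.88% and 29.4% against 3.21% and 5.22% of all genes, median -0.12). SFRP5, of the same family as SFRP4, was 230.1, 231 and 302 CPM in CTRL and 68.2, 78.3 and 94.4 CPM in IND (log2 fold change -1.66, SE 0.14, adjusted p = 8.25e-05). SOST and NOTUM, a lipase that inactivates WNT proteins (-0.99, SE 0.19, adjusted p = 0.00408), also fell. Of 14 WNT target genes, 4 were downregulated and 0 upregulated (28.6% and 0% against 5.22% and 3.21% of all genes, median -0.37). NOTUM and RNF43 are counted in both lists. LEF1, the nuclear partner of beta-catenin, was at -0.42 (SE 0.10, adjusted p = 0.0185). Among these targets, the upregulated members numbered 1 when CTRL replicate 2 was omitted and the downregulated members 1 when IND replicate 1 or 3 was omitted and 2 when CTRL replicate 1 or IND replicate 2 was omitted. Among the antagonists, the upregulated members numbered 2 when CTRL replicate 2 or 3 was omitted. LEF1 was at adjusted p = 0.0667 to 0.104 without CTRL replicate 1 or IND replicate 1 or 3.

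TGF-beta, activin and BMP genes had 4 members up and 9 down of 47 tested (8.51% and 19.1% against 3.21% and 5.22% of all genes, median -0.08). The BMP antagonist GREM1 (-0.99, SE 0.15, adjusted p = 0.0011) fell and the BMP receptor BMPR1B (0.98, SE 0.21, adjusted p = 0.0111) rose. Notch pathway genes had 1 member up and 5 down of 21 (4.76% and 23.8% against 3.21% and 5.22% of all genes, median -0.19). MFNG, which modifies Notch receptors, was 13.9, 18.4 and 10.7 CPM in CTRL and 5.17, 4.97 and 3.71 CPM in IND (log2 fold change -1.64, SE 0.21, adjusted p = 0.000342), and the ligand DLL3 was 46.6, 61.1 and 36.2 CPM in CTRL and 21.7, 21.9 and 19.3 CPM in IND (log2 fold change -1.195, SE 0.17, adjusted p = 0.00164). In the Hedgehog list, GLI1 was the 1 gene called of 15 (6.67% up and 0% down against 3.21% and 5.22% of all genes, median 0.25). DESeq2 and a replicate block called 5 members up, and the fit with no filter 6, with 1 down in each. The log2 fold change was above 0 for 12 of the 15. The summed level of the list was 908, 900 and 887 CPM in CTRL and 1029, 1145 and 1043 CPM in IND, without overlap. In the TGF-beta list, the upregulated members numbered 1 when IND replicate 2 or 3 was omitted and 2 when CTRL replicate 2 was omitted, and in the Notch list the upregulated members numbered 0 when CTRL replicate 2 or 3 or IND replicate 1, 2 or 3 was omitted and the downregulated members 9 when CTRL replicate 3 was omitted. In the Hedgehog list, the upregulated members numbered 0 when IND replicate 1 was omitted and 2 when CTRL replicate 3 or IND replicate 3 was omitted and the downregulated members 1 when CTRL replicate 2 was omitted. BMPR1B was at adjusted p = 0.0512 without IND replicate 2.

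Retinoic acid is made by ALDH1A enzymes, bound in the cell by CRABP proteins and degraded by CYP26 enzymes. Of 23 genes of this pathway tested, 9 were downregulated and 3 upregulated (39.1% and 13% against 5.22% and 3.21% of all genes, median -0.18). The upregulated members were RARRES3, ALDH1A3, which was 0.0545, 0.071 and 0.166 CPM in CTRL and 1.71, 0.522 and 1.68 CPM in IND (log2 fold change 3.78, SE 0.64, adjusted p = 0.00209), and the transglutaminase TGM2, which was 30.4, 27.1 and 30.5 CPM in CTRL and 59.1, 69.3 and 67.3 CPM in IND (log2 fold change 1.15, SE 0.10, adjusted p = 1.07e-05). Among the synthetic enzymes ALDH1A2 (-0.37, adjusted p = 0.0351) and ALDH1A3 thus differed in direction, with ALDH1A3 at a low level in both groups. The binding proteins CRABP1 (164, 191 and 149 CPM in CTRL and 82.5, 94.6 and 103 CPM in IND, log2 fold change -0.85, SE 0.11, adjusted p = 0.000318) and CRABP2 (-0.55, SE 0.11, adjusted p = 0.00619) and the degrading enzyme CYP26C1 (1.28, 0.781 and 1.12 CPM in CTRL and 0.0934, 0.224 and 0.118 CPM in IND, log2 fold change -2.83, SE 0.49, adjusted p = 0.00263) fell. In the retinoic acid list, the downregulated members numbered 4 when IND replicate 3 was omitted. CRABP2 was at adjusted p = 0.0571 without IND replicate 3. ALDH1A2 was at adjusted p = 0.0552 to 0.164 without CTRL replicate 1 or 2 or IND replicate 2 or 3.

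The interferon-stimulated and viral RNA sensing genes that were called all rose. Of 41 tested, 12 were upregulated and 0 downregulated, 29.3% against 3.21% of all genes, with a median log2 fold change of 0.49. GBP2, a guanylate-binding protein, was 2.72, 1.53 and 2.65 CPM in CTRL and 10.7, 12.6 and 13 CPM in IND (log2 fold change 2.39, SE 0.22, adjusted p = 2.05e-05). IFIT3, which binds viral RNA in a complex, was 2.45, 1.95 and 2.11 CPM in CTRL and 8.75, 6.76 and 9.99 CPM in IND (log2 fold change 1.96, SE 0.21, adjusted p = 8.25e-05). The cytosolic RNA sensor IFIH1 was 1.09, 0.497 and 0.705 CPM in CTRL and 2.65, 2.86 and 3.57 CPM in IND (log2 fold change 1.96, SE 0.32, adjusted p = 0.00162). These genes were at low levels in both groups, and the upregulated members numbered 7 when IND replicate 2 or 3 was omitted and the downregulated members 2 when CTRL replicate 2 was omitted. The upregulated members were 3 and 4 in limma on log2(FPKM + 1) and log2(FPKM + 0.1). The summed level of the list was 1138, 1078 and 1282 CPM in CTRL and 1255, 1249 and 1284 CPM in IND, and these ranges overlapped.

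Genes of MHC class I antigen presentation, which cut and load peptides, were upregulated for 6 of 15 tested, with 0 downregulated (40% and 0% against 3.21% and 5.22% of all genes, median 0.49). Across the alternatives that kept every library, 2 to 8 members were upregulated. The immunoproteasome subunit PSMB8 was 1.44, 1.53 and 1.49 CPM in CTRL and 8.16, 6.93 and 6.5 CPM in IND (log2 fold change 2.27, SE 0.21, adjusted p = 2.19e-05). TAP1, a chain of the peptide transporter, was 2.31, 1.74 and 2.07 CPM in CTRL and 6.76, 8.62 and 6.9 CPM in IND (log2 fold change 1.86, SE 0.21, adjusted p = 0.000114). PSMB9 was at 0 counts in every CTRL library and at 1.18, 0.646 and 0.887 CPM in IND, at least 8.69-fold higher against a floor of 3 counts per CTRL library (adjusted p = 0.000598). The 3 genes lie next to each other on chromosome 6 and PSMB9 overlaps TAP1 and PSMB8 on the other strand (GRCh38, bases 32844136 to 32859585), so that in a library without strand their reads cannot be fully told apart. TAPBP, the bridge between TAP and MHC class I (0.52, SE 0.09, adjusted p = 0.00314), and the light chain B2M (0.49, SE 0.10, adjusted p = 0.0086) rose as well. B2M was at adjusted p = 0.0543 without IND replicate 3.

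The interferon-stimulated response element is the short promoter sequence bound by interferon regulatory factors and by STAT complexes. The pattern GAAANNGAAA was searched on both strands in the RefSeq promoter windows, 250 bases before to 50 bases after each gene start (GRCh38.p14). It was present in 9 of the 10 upregulated interferon genes with a window and in 14 of 20 that were not called. In the MHC class I list it was present in 4 of the 6 upregulated genes with a window and in 5 of 6 that were not called. Over the whole comparison it was present in 33 of 449 upregulated genes (7.35%), 17 of 709 downregulated genes (2.4%), 3.9% of the genes tested and 4.38% of all genes with a window. The stretches below lie before the start of 4 upregulated genes, printed in the direction of transcription with each match in capitals, overlapping matches running together, and are shown so that the matched letters can be read in place.
IFIT3 (chr10:89332458-89332507, plus strand): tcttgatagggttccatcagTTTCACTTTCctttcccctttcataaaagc
IFIH1 (chr2:162318685-162318725, minus strand): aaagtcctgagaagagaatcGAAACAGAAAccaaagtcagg
TAP1 (chr6:32853803-32853852, minus strand): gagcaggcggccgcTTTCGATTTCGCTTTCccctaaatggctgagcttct
TAPBP (chr6:33314079-33314112, minus strand): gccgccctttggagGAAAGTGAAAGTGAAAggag
The matched letters end 42, 12, 119 and 5 bases before the start, in that order. The forkhead core GTAAACA, searched in the same way, was present in 4.45% of the upregulated (20 of 449), 2.82% of the downregulated (20 of 709), 3.56% of the genes tested and 4.19% of all genes with a window. A match is a run of letters and no evidence of binding.

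Complement and coagulation genes had 8 members up and 5 down of 40 tested (20% and 12.5% against 3.21% and 5.22% of all genes, median 0.10). The initiating proteases C1R (13.8, 12.2 and 12.6 CPM in CTRL and 31.3, 28.6 and 29.3 CPM in IND, log2 fold change 1.21, SE 0.11, adjusted p = 2.11e-05) and C1S (19.7, 15.4 and 20.7 CPM in CTRL and 42.4, 42.5 and 43 CPM in IND, log2 fold change 1.19, SE 0.12, adjusted p = 3.47e-05) rose by similar amounts. C6, which lies near C7 on chromosome 5 and acts with it in the membrane attack complex, held 3, 0 and 0 counts in CTRL and 15, 16 and 20 in IND (adjusted p = 0.0173), a ratio of summed counts, scaled by library size, of 12.3 with a counting interval of 3.98 to 61.6. CFI, an inhibitor of the cascade, was 26.1, 19.9 and 26 CPM in CTRL and 16.7, 13.1 and 14.6 CPM in IND (log2 fold change -0.70, SE 0.14, adjusted p = 0.00596). In the complement list, the upregulated members numbered 5 when IND replicate 1 was omitted and the downregulated members 3 when IND replicate 3 was omitted. C6 was at adjusted p = 0.0604 to 0.0675 without CTRL replicate 2 or IND replicate 1 or 3.

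Muscle genes were mostly lower where they changed. Smooth muscle and contractile genes had 1 member up and 4 down of 17 (5.88% and 23.5% against 3.21% and 5.22% of all genes, median -0.33). Cardiac and skeletal muscle genes had 1 up and 4 down of 24 (4.17% and 16.7%, median -0.28). SYNPO2, an actin-bundling protein, was 7.38, 4.83 and 12.9 CPM in CTRL and 36, 42.8 and 38.7 CPM in IND (log2 fold change 2.24, SE 0.33, adjusted p = 0.0103), the upregulated smooth muscle gene. DES, the muscle intermediate filament desmin, was 86.3, 81.6 and 119 CPM in CTRL and 40.7, 42.1 and 36.7 CPM in IND (log2 fold change -1.26, SE 0.14, adjusted p = 0.000261), and LDB3 (-1.62, SE 0.19, adjusted p = 0.000115), ACTC1 (-1.53, SE 0.16, adjusted p = 9.4e-05), the natriuretic peptide NPPB (-1.57, SE 0.23, adjusted p = 0.000687) and TBX5 (-0.72, SE 0.12, adjusted p = 0.00252) fell. Of 24 endothelial markers, MMRN1 (-0.70, SE 0.11, adjusted p = 0.00133) was the 1 called (4.17% downregulated against 5.22% of all genes), and the list's median was 0.46. In the endothelial list, the upregulated members numbered 1 when IND replicate 3 was omitted and 2 when CTRL replicate 2 or 3 was omitted, and DESeq2 called 3 increases. In the smooth muscle list, the downregulated members numbered 7 when CTRL replicate 2 was omitted, and in the cardiac and skeletal list the upregulated members numbered 0 when CTRL replicate 1 or 2 or IND replicate 1 or 3 was omitted and 3 when CTRL replicate 3 was omitted.

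Other forkhead genes were called for 3 increases and 4 decreases of 35 tested (8.57% and 11.4% against 3.21% and 5.22% of all genes, median 0.04). FOXP2 was 28.7, 26.7 and 17.8 CPM in CTRL and 50.1, 45 and 39.2 CPM in IND (log2 fold change 0.87, SE 0.17, adjusted p = 0.01). FOXC2 was 12.5, 10.4 and 10.3 CPM in CTRL and 5.29, 6.28 and 2.996 CPM in IND (log2 fold change -1.198, SE 0.24, adjusted p = 0.00829). HOX genes had 1 member up and 4 down of 28 (3.57% and 14.3% against 3.21% and 5.22% of all genes, median -0.49). In the HOX list, the upregulated members numbered 0 when CTRL replicate 2 or 3 or IND replicate 1, 2 or 3 was omitted and the downregulated members 0 when CTRL replicate 2 was omitted, 1 when CTRL replicate 1 or IND replicate 2 or 3 was omitted and 11 when CTRL replicate 3 was omitted. Intermediate mesoderm and nephron progenitor genes had 1 up, which was OSR1, and 4 down of 19 (5.26% and 21.1% against 3.21% and 5.22% of all genes, median 0.02). In the forkhead list, the downregulated members numbered 1 when IND replicate 3 was omitted and 2 when CTRL replicate 1 or IND replicate 1 or 2 was omitted, and in the nephron list the upregulated members numbered 2 when CTRL replicate 2 was omitted and the downregulated members 0 when CTRL replicate 1 was omitted, 1 when IND replicate 1 was omitted and 2 when IND replicate 3 was omitted. Endoderm and liver-lineage genes had 1 up and 1 down of 17 (5.88% and 5.88% against 3.21% and 5.22% of all genes, median 0.37). Each of these shares rests on 1 gene. The upregulated one, AFP, alpha-fetoprotein, was 6.24, 6.42 and 5.8 CPM in CTRL and 14.7, 17.1 and 9.3 CPM in IND (log2 fold change 1.15, SE 0.21, adjusted p = 0.0036). In the endoderm list, the upregulated members numbered 2 when IND replicate 3 was omitted and the downregulated members 0 when IND replicate 3 was omitted.

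FGF and PDGF genes had 2 up and 3 down of 30 (6.67% and 10.00% against 3.21% and 5.22% of all genes, median -0.05), and the upregulated members numbered 0 when CTRL replicate 1 or IND replicate 1 or 3 was omitted and 1 when IND replicate 2 was omitted. IGF genes had 1 up and 2 down of 13 (7.69% and 15.4% against 3.21% and 5.22% of all genes, median 0.02), and the upregulated members numbered 0 when CTRL replicate 1 or 2 or IND replicate 2 or 3 was omitted and 4 when CTRL replicate 3 was omitted and the downregulated members 1 when CTRL replicate 1 or IND replicate 1 or 3 was omitted. Caveolin and cavin genes had 1 up and 0 down of 8 (12.5% and 0% against 3.21% and 5.22% of all genes, median 0.17), and the upregulated members numbered 0 when CTRL replicate 1 or IND replicate 2 or 3 was omitted and 3 when CTRL replicate 3 was omitted and the downregulated members 1 when CTRL replicate 3 was omitted. Each of these counts is of 3 or fewer genes.

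Genes of the integrated stress response and amino acid supply were downregulated for 11 of 37 tested and upregulated for 1 (29.7% and 2.7% against 5.22% and 3.21% of all genes, median -0.28). The steps were small, such as those of the tryptophan tRNA synthetase WARS (-0.61, SE 0.11, adjusted p = 0.00343) and STC2 (-0.52, SE 0.10, adjusted p = 0.00574). In the stress response list, the upregulated members numbered 0 when CTRL replicate 1 or IND replicate 2 was omitted and the downregulated members 5 when IND replicate 3 was omitted and 7 when IND replicate 2 was omitted. Glycolysis and hypoxia genes had 6 down and 1 up of 36 (16.7% and 2.78% against 5.22% and 3.21% of all genes, median -0.20). These included the hexokinase HK2 (-0.51, SE 0.09, adjusted p = 0.0031), ENO2, the neuronal enolase (-0.77, SE 0.12, adjusted p = 0.00231), and, upward, NDRG1 (0.60, SE 0.08, adjusted p = 0.000385). In the glycolysis list, the upregulated members numbered 2 when CTRL replicate 1 or 3 was omitted and the downregulated members 2 when IND replicate 3 was omitted and 3 when CTRL replicate 1 or IND replicate 1 or 2 was omitted. The p53 targets had 0 up and 3 down of 25 (0% and 12% against 3.21% and 5.22% of all genes), namely PHLDA3 (-0.69, SE 0.09, adjusted p = 0.000462), the apoptosis gene BBC3 (-0.52, SE 0.13, adjusted p = 0.0226) and the apoptosis gene BAX (-0.31, SE 0.08, adjusted p = 0.0349), and the downregulated members numbered 1 when CTRL replicate 1 or 2 or IND replicate 2 or 3 was omitted. No member was called at this depth among 41 cell cycle genes (median -0.08), 16 unfolded protein response genes (0.05), 74 ribosomal protein genes (0.14), 13 mitochondrially encoded genes (0.08) and 12 pluripotency genes (-0.20). Over all genes 8.43% were called, and in the lists of 12 to 16 genes 0 calls cannot be told apart from that share. Among the ribosomal genes, the upregulated members numbered 1 when CTRL replicate 3 was omitted and 4 when CTRL replicate 2 was omitted. Among the cell cycle genes, the upregulated members numbered 1 when CTRL replicate 2 was omitted, among the unfolded protein response genes the upregulated members numbered 1 when CTRL replicate 3 was omitted, and among the pluripotency genes the downregulated members numbered 2 when CTRL replicate 3 or IND replicate 2 was omitted. PPIG, the reference gene of the study's quantitative PCR, was 88.3, 83.2 and 81.2 CPM in CTRL and 92.8, 80.8 and 96.5 CPM in IND (adjusted p = 0.595). BBC3 was at adjusted p = 0.0503 to 0.122 without CTRL replicate 1 or 2 or IND replicate 2 or 3. BAX was at adjusted p = 0.0594 to 0.141 without CTRL replicate 1 or 2 or IND replicate 1, 2 or 3.

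Whether the genes changed by induction are those that the differentiation itself moves was asked with the cells of day 4, before induction, and the CTRL cells of day 12, which share no sample with day 14. Between them, 48.1% of the 19289 genes tested changed (9279 genes). Among the genes tested at day 14, 24.5% rose and 22.9% fell in that interval. Of the 994 genes downregulated in IND, 637 (64.1%) had risen and 125 (12.6%) had fallen, and of the 612 upregulated genes, 256 (41.8%) had risen and 105 (17.2%) had fallen. The downregulated genes that had risen make up 13.7% of all genes that rose. A gene can be downregulated in IND only where CTRL expresses it at day 14, and CTRL of day 12 belongs to the same differentiation. The share that had risen is raised among the downregulated genes by that alone, and by how much was not tested. TBX18 was at 10, 3 and 0 counts in the 3 libraries of day 4 and at 77.2, 131 and 148 CPM in CTRL of day 12 (adjusted p = 4.26e-06), and LHX9 rose from 0 counts in each library of day 4 to 3.12, 5.97 and 7.05 CPM (adjusted p = 0.000132). GATA4 had risen by 2.86 on the log2 scale (adjusted p = 6.32e-06) and CALB2 by 3.76 (adjusted p = 4.87e-05), and COL3A1, upregulated in IND, had also risen (1.97, adjusted p = 0.00371). TNC, by contrast, had fallen (-0.82, adjusted p = 0.0405).

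**Figure D4:**
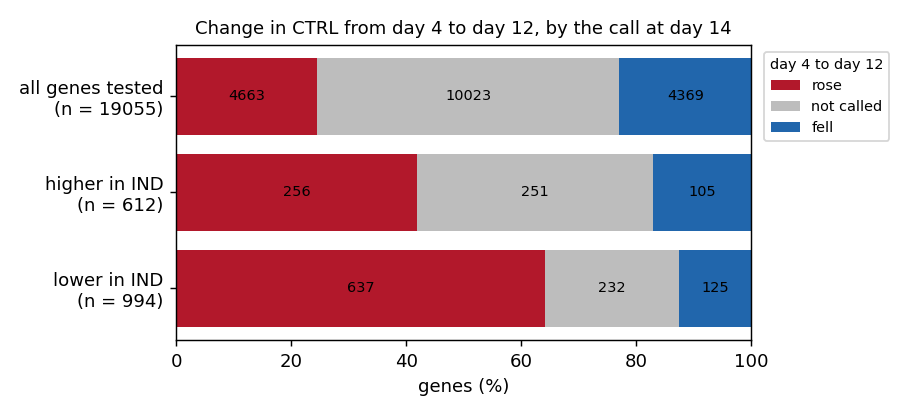
Share of genes (x axis, percent, counts in the bars) that rose, fell or were not called in CTRL from day 4 to day 12, for all genes tested at day 14 and for those upregulated or downregulated in IND. The share that rose is 64.1% among the downregulated genes, 41.8% among the upregulated genes and 24.5% among all genes.

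The induction effect of day 14 was then set against that of earlier days. Against day 12, in libraries that are not shared, 0 of 20927 genes passed the test of a different effect (0% called, edgeR, lowest adjusted p = 0.0812). At an unadjusted p under 0.05 there were 2653 genes (12.7%), and DESeq2 called 218. The 0 calls therefore do not show that the effects of day 12 and day 14 were equal. Leaving out 1 library gave 19 calls without day 12 IND replicate 1, 98 without day 12 IND replicate 3, 47 without day 14 CTRL replicate 3 and 0 otherwise. Of the 1606 genes called at day 14, 1582 were tested at day 12 and 1402 (88.6%) had the same sign there, against 56.4% of all genes. WT1 had a log2 fold change of -1.60 ± 0.11 (SE) at day 12 and -0.57 ± 0.13 at day 14, a difference of 1.02 that did not pass the test (adjusted p = 0.0926). PLXNA2 was at -0.27 ± 0.14 and 0.81 ± 0.10 (difference 1.07, adjusted p = 0.0812).

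Against day 8, the effect differed for 1095 of 20584 genes (5.32%), being more positive at day 14 for 478 and more negative for 617. Omitting 1 library made this number 493, 510, 575 and 530 without day 8 CTRL replicates 1 and 3 and IND replicates 1 and 2, 2249 without day 8 IND replicate 3, and 708, 696 and 498 without day 14 CTRL replicates 1 and 2 and IND replicate 3. They hold 416 of the genes called at day 14, which is 38% of the 1095 and 25.9% of the 1606. Both sets use the day 14 libraries, which raises this overlap. At day 8, 1124 of 1504 genes called at day 14 (74.7%) had the same sign, against 52.7% of all genes. EDN3 was -0.13 ± 0.14 at day 8 and 2.61 ± 0.16 at day 14, a difference of 2.74 (SE 0.22, adjusted p = 6.67e-06). TM4SF1 went from 0.72 ± 0.21 to -2.71 ± 0.22 (difference -3.44, SE 0.31, adjusted p = 0.000109) and SOST from 0.33 ± 0.40 to -3.33 ± 0.35 (difference -3.66, SE 0.62, adjusted p = 0.00857). SPRR2F went from -1.73 ± 0.46 to 1.07 ± 0.12 (difference 2.79, SE 0.50, adjusted p = 0.0137). The decreases of GATA4 and WT1 were smaller at day 14 than at day 8, GATA4 going from -1.34 ± 0.12 to -0.55 ± 0.10 (difference 0.78, SE 0.17, adjusted p = 0.0167) and WT1 from -2.32 ± 0.31 to -0.57 ± 0.13 (difference 1.75, SE 0.36, adjusted p = 0.0248). The other called factors of their list did not pass this test, with TBX18 at -2.60 ± 0.12 and -2.78 ± 0.22 (difference -0.18, SE 0.27, adjusted p = 0.752), GATA2 at -0.58 ± 0.18 and -1.30 ± 0.18 (difference -0.72, SE 0.26, adjusted p = 0.11), LHX9 at -3.33 ± 0.87 and -1.51 ± 0.31 (adjusted p = 0.297) and LHX1 at -0.82 ± 0.22 and -0.74 ± 0.21 (adjusted p = 0.907).

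The mean level of FOXL2 in IND went, over the course, from 531 ± 59.2 CPM (SD, n = 3) on day 6 to 284 ± 39.3 by day 8 and 265 ± 29.3 by day 10. It was 224 ± 16.1 CPM in the libraries of day 12 and 174 ± 21.2 in those of day 14, each scaled within its own day. The mean of day 14 was the lowest of the 5 days, and the differences in level between days were not tested. Its induction effect did not pass the test of a difference from day 8 (-1.63, adjusted p = 0.263), and the CTRL counts behind it were near 0. CALB2 had a log2 fold change of -0.74 ± 0.18 at day 6 and -4.13 ± 0.26 at day 14, and TBX18 of -1.90 ± 0.21 and -2.78 ± 0.22.

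**Figure D5:**
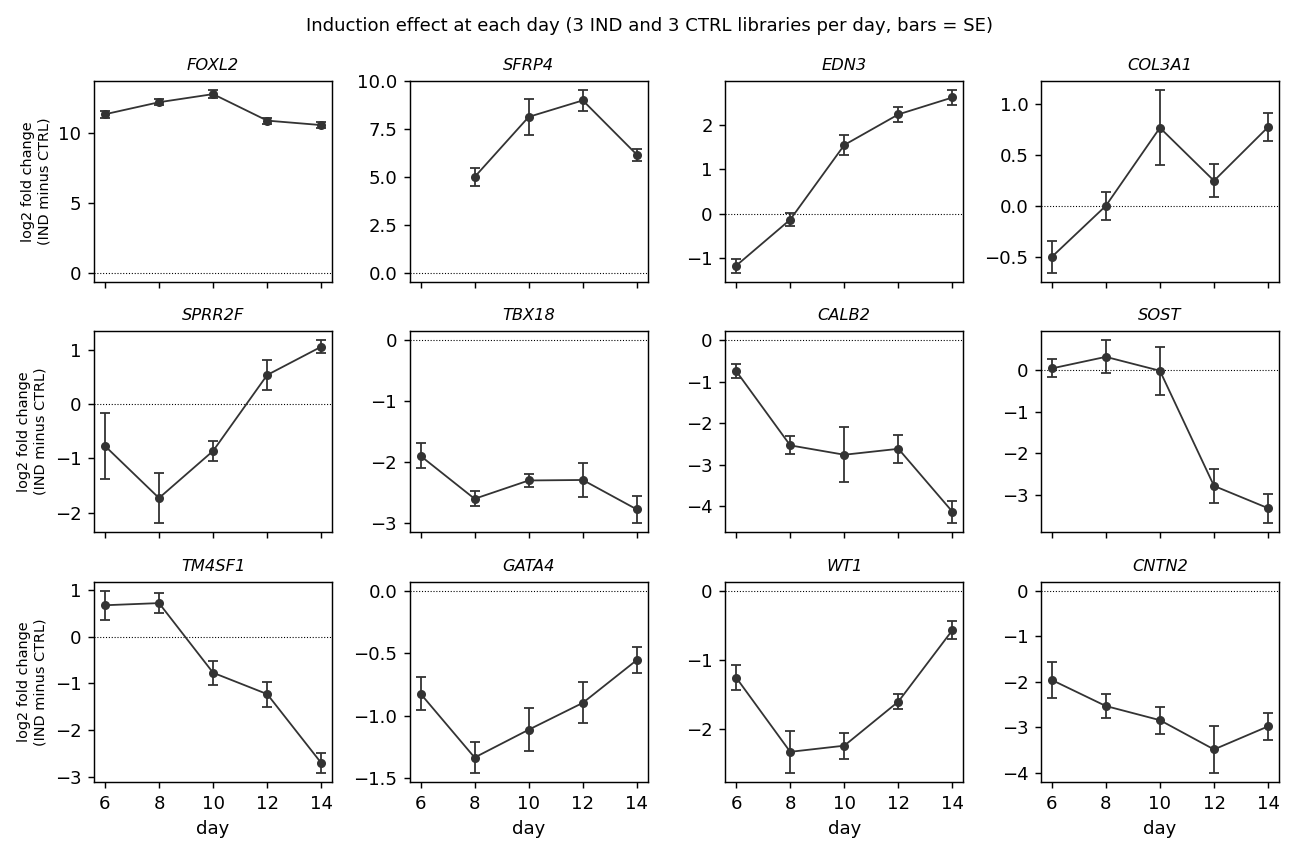
Log2 fold change of IND against CTRL (y axis, bars are SE) on each of the 5 days with both groups (x axis) for 12 named genes, each day fitted on its own 3 IND and 3 CTRL libraries. EDN3, COL3A1 and SPRR2F move from negative or near 0 at day 8 to positive at day 14, SOST and TM4SF1 become negative from day 12 and day 10 on, and GATA4 and WT1 return towards 0. SFRP4 was not tested at day 6.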

How the data were processed

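RNA of H9-derived cells was sequenced by a commercial provider from poly-A-selected, non-directional libraries, so that reads carry no strand. Per the labels and the study's methods, the authors trimmed reads with fastp 0.23.2, aligned them to GRCh38 with HISAT2 2.0.5 and deposited the counts per gene made with featureCounts 1.5.0-p3, together with FPKM values, which the authors derived from the same counts and gene lengths. The deposited counts were used for all main results, and the deposited FPKM values only in an alternative. No column of the authors' own comparisons was used.

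Samples were grouped by the day and condition in their labels. The members and gene lists were chosen with earlier results of these data known, and parts of the scripts and lists came from an earlier analysis of the whole series. Genes were filtered with filterByExpr, library sizes were scaled by TMM, and edgeR 4.0.16 in R 4.3.3 gave quasi-likelihood F tests, with 3 IND and 3 CTRL libraries in the fit, p-values adjusted by Benjamini-Hochberg over all genes tested and a threshold of 0.05. The standard error was derived from the log2 fold change and its test statistic. Differences between days were interaction terms over the 4 groups concerned. Alternatives were DESeq2 1.42.0, RLE scaling, no filter, a mean count filter of 50, 1 fit over all 33 libraries, a replicate block, limma 3.58.1 on FPKM with pseudocounts of 1 and 0.1, and leaving out each library. The steps were tested on simulated counts.

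The text names the 15 largest changes in each direction among called genes at an average of at least 1 log2 CPM, the 5 largest differences in CPM per direction, up to 4 called members of a list per direction and the genes the study's text follows. Some genes selected by this rule are not reported here. List counts that moved by over 1.5 times without 1 library are given beside them. Library totals of 24291092 to 51900017 counts set the precision, and intervals and floors of 3 counts cover counting error only. Promoter sequences came from RefSeq (GRCh38.p14), where 27305 genes had a window, 12484 of them tested here. Figures were drawn with matplotlib 3.10.9 in Python 3.11.15.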

Additional observations from a re-analysis of the deposited data

Results flagged for a closer look

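The induction effect, on the log2 scale, was tested for a difference between day 14 and day 8 for 153 genes given with values in the report, and 50 differed at an adjusted p under 0.05 (edgeR quasi-likelihood test with Benjamini-Hochberg adjustment over all genes). Over all genes, 1095 of 20584 differed (5.32%). The named genes were chosen mainly for their change at day 14, and the day 14 libraries enter this difference. Their share therefore cannot be read against that of all genes. The values are day 14 minus day 8, so that a negative value is a lower effect at day 14. Among the gonadal and coelomic epithelial genes the difference was 0.78 for GATA4, 1.75 for WT1, 1.37 for RSPO1, -1.96 for LGR5, -2.43 for TAC1, 1.62 for STAR, 2.79 for SPRR2F, 1.44 for ERBB4, -1.17 for CYP26B1 and -1.60 for CALB2. LGR5 had effects of 1.22 and -0.73 at day 8 and day 14 and STAR of -1.80 and -0.17, and neither gene was called at day 14.

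In matrix and secreted genes it was 2.81 for MFAP5, 0.77 for COL3A1, 0.62 for GPC3, -1.80 for TNC, -0.74 for BGN, 2.00 for DCN, -1.02 for EFEMP1 and -1.62 for ADAMTS16. EFEMP1 and ADAMTS16 were higher in IND at both days, with effects of 2.01 and 0.99 for EFEMP1 and 2.80 and 1.18 for ADAMTS16 at day 8 and day 14. In WNT, BMP, Notch and retinoic acid genes it was -3.66 for SOST, -1.11 for WNT1, -1.43 for SFRP5, -1.08 for GREM1, -1.67 for MFNG, 4.40 for ALDH1A3, -3.57 for CYP26C1 and -0.63 for CRABP2.

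In neuronal, glial, guidance and channel genes the difference was -3.70 for HMX1, -3.48 for ISL2, -0.82 for DPYSL3, -0.86 for FABP7, -0.72 for TUBA1A, -1.32 for ENO2, 1.37 for PLXNA2, -0.66 for NRP2, -1.53 for NTNG1, -4.47 for EPHA5, -4.30 for KCNQ3 and -3.95 for KCNH6. HMX1, ISL2, EPHA5 and KCNH6, like ALDH1A3, were below the expression filter at day 8 and were not tested on that day alone. The day 8 part of their differences rests on few counts, so that the size of these differences is uncertain. KCNQ3 had effects of 2.14 and -2.15 at day 8 and day 14 and SUCNR1 of 2.48 and -3.32, opposite in sign. In the remaining genes it was 2.74 for EDN3, 0.54 for TXNIP, 0.86 for C1S, 1.99 for CFI, 1.004 for DSG2, 1.35 for PCDH18, -0.68 for MYH9, -1.81 for ACTC1, -0.79 for MMRN1, -3.44 for TM4SF1, -5.79 for SUCNR1 and -4.36 for BOLA2B. BOLA2B shares reads with its near-identical copy. Single libraries were not tested for standing apart within a group, since each group holds 3.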

How the results depend on the processing

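The 612 upregulated and 994 downregulated genes of day 14 became 2448 calls with no filter on low counts (1015 up), 861 in 1 fit over all libraries (312 up, 549 down), 697 when a log2 fold change of 1 or more in size was required (234 up, 463 down), and 206 (88 up, 118 down) or 415 (160 up, 255 down) in limma on log2(FPKM + 1) or log2(FPKM + 0.1). With 1 library left out they ranged from 905 to 1987 (339 to 770 up, 566 to 1217 down). The difference from day 12, with 0 calls, had 746 with no filter, 2 in 1 fit over all libraries, 218 with DESeq2 and 0 to 98 with 1 library left out. The 1095 calls against day 8 became 2165, 352 and 1884 in the same alternatives and 493 to 2249 with 1 library left out. The cause of these shifts was not tested. Between day 4 and day 12, 7129 to 10805 genes were called with 1 library left out. RLE scaling moved none of these counts by over 1.5 times.

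The replicate numbers were not used as pairs in the main fits. The deviations of same-numbered libraries correlated at -0.0321, -0.0285 and 0.133 across genes, and only replicate 3 correlated best with its own number. With 3 libraries per group these values cannot show whether the numbers pair the samples. A replicate block gave 1948 calls at day 14, 0 against day 12, 1831 against day 8 and 8859 between day 4 and day 12.

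Of the 140 called genes given with values, 112 passed the test in every fit with 1 library left out, and 140 did with DESeq2 and RLE scaling, 136 with no filter, 136 with the block, 101 in 1 fit over all libraries (LHX9, WT1, COL3A1 and KRT19 among the 39 lost), 84 at a log2 fold change of 1 or more in size, and 58 and 84 in limma on log2(FPKM + 1) and log2(FPKM + 0.1) (GATA4, LHX9, INHBA, OSR1 and TLR3 among those lost in the first). Uncalled in the report, SOX9, FST, WNT4 and KRT8 passed with DESeq2 and with no filter, SOX9 and FST with the block and SOX9 in 1 fit over all libraries (adjusted p = 0.0386). With 1 library left out they passed at adjusted p = 0.000135, 0.00257 and 0.0349 without CTRL replicate 3 and, for KRT8, 0.0367 without CTRL replicate 2. Of 66 list counts above 0, 31 fell by over 1.5 times in 1 fit over all libraries, 46 at a log2 fold change of 1 or more and 59 and 50 in the limma fits, and 26, 14 and 13 rose so with no filter, DESeq2 and the block. Of the uncalled genes, the log2 fold change of STAR ranged from -0.289 to 0.0274 and that of WNT6 from -0.65 to 0.14 with 1 library left out, both changing sign, STAR without CTRL replicate 2 and WNT6 without IND replicate 1. Genes under 1 CPM, such as WNT6, rest on few counts, so that depth limits them most.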
